A study of Arabidopsis thaliana with 6 samples.

Results

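The genes described here are the cyclins and cyclin-dependent kinases (CDKs) of Arabidopsis thaliana. They are the 81 of 38192 genes in the deposited count table whose description names a cyclin of type A, B, D, U, T or H, or the words cyclin-dependent kinase. Of the 81, 69 were classed as a cyclin, a CDK, a CDK inhibitor or a CDK regulatory subunit, by annotation, symbol, or a cyclin, kinase or inhibitor domain. The other 12 matched only through a similarity or other domain entry in their description. Among the 69, AT4G19110, AT5G45430 and AT1G67580 are themselves annotated only as protein kinases. Their CDK names come from a similarity match to rice. The search words leave out the C- and L-type cyclins and the SIAMESE-related inhibitors. RNA came from shoots (all above-ground tissue) of seedlings harvested at 9 days, grown at 23 ± 2 °C with 16 h of light and 8 h of dark. The mutant group was cpl2-2, labelled a knockout of CPL2, and its control group was wild-type Col (WT). Each genotype had 3 libraries, which the design text calls biological replicates. No label gives the position or nature of the cpl2-2 lesion, or whether more than 1 line was used.

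Cyclins are regulatory subunits that bind and activate CDKs, and their synthesis and destruction at set times drives the order of the cell cycle. In plants, D-type cyclins with CDKA act at the entry into the cycle, A3-type cyclins act around DNA replication, and A1-, A2- and B-type cyclins with CDKA or the plant-specific B-type CDKs act in G2 and mitosis. KRP proteins inhibit these kinases and CKS proteins dock them to substrates. CDKC with T-type cyclins and CDKD with CYCH1-1 phosphorylate the C-terminal domain (CTD) of RNA polymerase II, the substrate of CPL-type phosphatases such as CPL2. In a 9-day seedling the dividing cells of the shoot lie in the meristem, the young leaf primordia and the stomatal lineage.

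The libraries held 18299294 to 21098728 counts. CPL2 itself had 10.6, 10.9 and 10.8 CPM (counts set to one library size with TMM factors) in cpl2-2 and 19.3, 18.4 and 19.1 CPM in WT. It was therefore lower in every mutant library (log2 fold change -0.82, SE 0.10, adjusted p = 6.01e-09, edgeR quasi-likelihood test with Benjamini-Hochberg adjustment). All adjusted p-values below are from this test over 19302 genes unless another tool is named, and a gene is called at an adjusted p under 0.05. Over all genes tested, 27.3% were called, 14.1% higher and 13.3% lower. Of the 81 cyclin and CDK genes, 68 passed the filter on low counts, and of these 2 were called higher, 10 were called lower and 56 were not called. The share called, 17.6%, lay below the 27.3% of all genes, and the share called lower, 14.7%, lay near the background of 13.3%. Scaled by library totals instead of TMM factors, the split was 4 higher and 6 lower, and over all genes 3952 higher and 1666 lower, against 2717 and 2560 with TMM factors. Without WT replicate 2 the calls of the set were 2 higher and 6 lower, and without WT replicate 3 they were 1 higher and 5 lower. The median log2 fold change was -0.10 over the 68 and -0.0017 over all genes tested. In 22 of the 68 every cpl2-2 library was below every WT library (32.4%, against a background of 19.3%), and in 2 every cpl2-2 library was above (2.94%, against 19.8%), 24 in either direction, against a background of 39.0%. None of the 68 differed by 2-fold or more, against 804 of the 19302 genes tested. An unadjusted p under 0.05 was found for 21 of the 68 and for 7108 of the 19302. The latter is the background for the counts of unadjusted p given below.

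**Figure D1:**
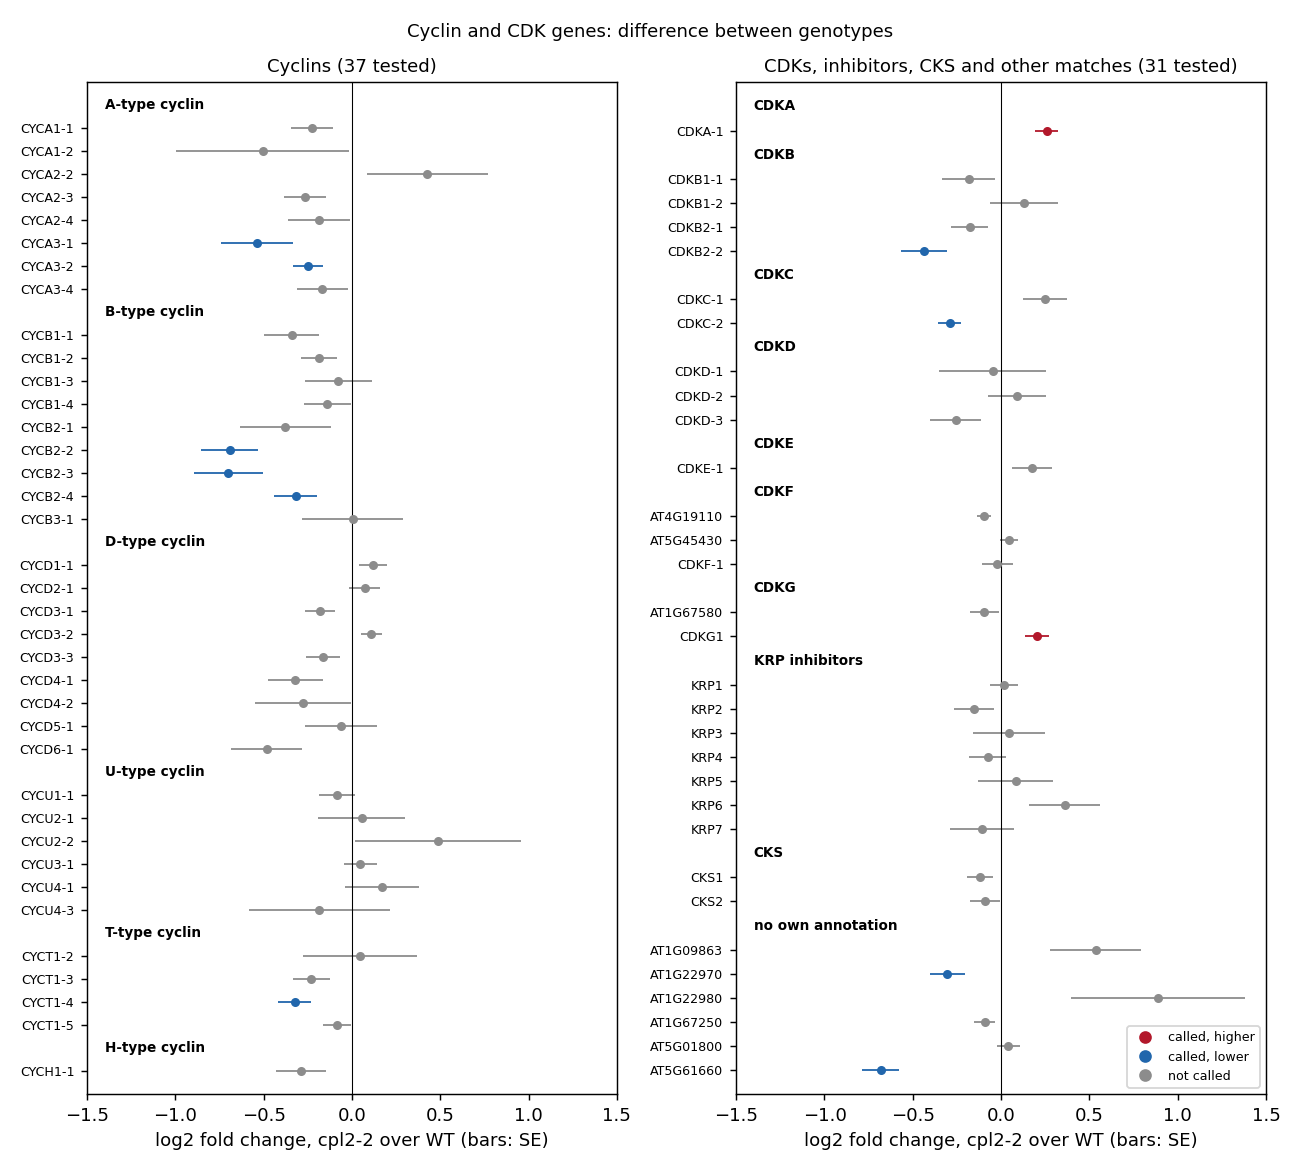
Log2 fold change (cpl2-2 over WT) of each of the 68 cyclin and CDK genes tested, with its standard error, grouped by class. Called genes are coloured: 10 lie below 0 and 2, CDKA-1 and CDKG1, above.

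B-type cyclins, the partners of mitotic CDKs, held the lowest log2 fold changes among the genes annotated as cyclins or CDKs. Of 11 in the table, 9 were tested: 3 fell, all of the B2 group, none rose, and 8 of the 9 lay below 0 (median log2 fold change -0.32). Over all genes tested 13.3% fell, 14.1% rose and 50.2% lay below 0. Their summed level was 52.5 to 59.1 CPM in cpl2-2 and 64.9 to 69.5 CPM in WT, so that the genotypes did not overlap. In bulk RNA, fewer dividing cells and less transcript per dividing cell cannot be told apart.

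CYCB2-2 (AT4G35620, chromosome 4, 16901596 to 16904001, plus strand) had 88, 91 and 93 counts in cpl2-2 and 139, 157 and 150 in WT, or 4.69, 4.31 and 4.51 CPM in cpl2-2 and 6.87, 7.65 and 7.30 CPM in WT. Every mutant library was below every WT library, and the mean was 61.9% of WT (log2 fold change -0.69, SE 0.16, adjusted p = 0.000837). CYCB2-3 (AT1G20610, chromosome 1, 7134659 to 7137828, minus strand) had 4.42, 2.89 and 3.39 CPM in cpl2-2 and 4.99, 6.78 and 5.55 CPM in WT. Its mean was 61.6% of WT (log2 fold change -0.70, SE 0.19, adjusted p = 0.00455), and without WT replicate 2, its highest library, the adjusted p was 0.0525. CYCB2-4 had 8.32, 8.81 and 9.65 CPM in cpl2-2 and 11.4, 11.1 and 10.9 CPM in WT (log2 fold change -0.32, SE 0.12, adjusted p = 0.0447). The genotypes did not overlap, but the call is close to the threshold and was lost in 8 of 12 alternatives (adjusted p-values of 0.0351 to 0.147 over the 12), among them leaving out cpl2-2 replicate 1 or 2 or any 1 WT library. CYCB2-1, the fourth tested gene of the group, had 2.03, 2.32 and 2.08 CPM in cpl2-2 and 2.27, 2.53 and 3.55 CPM in WT, with 1 mutant library above the lowest WT one, and was not called (log2 fold change -0.38, SE 0.26, adjusted p = 0.297).

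The B1 cyclins, which include CYCB1-1, a widely used reporter of G2 and mitosis, had no call among 4 tested by edgeR, DESeq2 or limma-voom, and 1 had an unadjusted p under 0.05. CYCB1-1 had 5.49, 5.88 and 5.96 CPM in cpl2-2 and 6.82, 8.19 and 6.96 CPM in WT, without overlap (log2 fold change -0.34, SE 0.15, adjusted p = 0.0968). CYCB1-2, the B-type cyclin with the highest level per kilobase of gene length, had 13.5, 14.2 and 15.3 CPM in cpl2-2 and 15.6, 16.5 and 16.9 CPM in WT (log2 fold change -0.19, SE 0.10, adjusted p = 0.173). CYCB1-3 and CYCB1-4 had log2 fold changes of -0.08 and -0.14. CYCB3-1 averaged 1.91 CPM in both genotypes.

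The 300 bases upstream of the annotated start of the 4 tested B2 cyclins, the group with the lowest fold changes, and of CYCB1-2, the most abundant B-type cyclin, are shown for comparison. They were read from the TAIR10.1 RefSeq genome, 5′ to 3′ on the gene's strand, and lie at chr4:16901296-16901595, plus strand (CYCB2-2), chr1:7137829-7138128, minus strand (CYCB2-3), chr2:7663755-7664054, plus strand (CYCB2-1), chr1:28630790-28631089, minus strand (CYCB2-4) and chr5:1861704-1862003, minus strand (CYCB1-2). Capitals mark AACGG on either strand, the core of the mitosis-specific activator (MSA) element that MYB3R transcription factors bind in promoters of plant G2 and mitosis genes.
CYCB2-2: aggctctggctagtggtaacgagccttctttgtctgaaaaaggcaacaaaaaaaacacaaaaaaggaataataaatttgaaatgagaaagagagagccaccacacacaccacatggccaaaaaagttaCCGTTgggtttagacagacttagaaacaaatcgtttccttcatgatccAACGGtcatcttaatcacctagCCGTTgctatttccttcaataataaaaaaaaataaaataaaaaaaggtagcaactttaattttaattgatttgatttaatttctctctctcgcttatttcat
CYCB2-3: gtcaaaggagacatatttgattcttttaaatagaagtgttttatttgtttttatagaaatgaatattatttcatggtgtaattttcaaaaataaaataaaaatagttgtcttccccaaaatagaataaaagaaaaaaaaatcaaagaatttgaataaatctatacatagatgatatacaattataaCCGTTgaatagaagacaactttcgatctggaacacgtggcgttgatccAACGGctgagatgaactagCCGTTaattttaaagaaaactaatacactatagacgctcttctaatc
CYCB2-1: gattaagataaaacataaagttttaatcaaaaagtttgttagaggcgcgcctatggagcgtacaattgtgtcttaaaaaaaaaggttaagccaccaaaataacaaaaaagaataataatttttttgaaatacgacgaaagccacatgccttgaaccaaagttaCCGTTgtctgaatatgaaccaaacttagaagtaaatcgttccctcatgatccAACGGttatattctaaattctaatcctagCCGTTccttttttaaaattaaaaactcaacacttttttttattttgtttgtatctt
CYCB2-4: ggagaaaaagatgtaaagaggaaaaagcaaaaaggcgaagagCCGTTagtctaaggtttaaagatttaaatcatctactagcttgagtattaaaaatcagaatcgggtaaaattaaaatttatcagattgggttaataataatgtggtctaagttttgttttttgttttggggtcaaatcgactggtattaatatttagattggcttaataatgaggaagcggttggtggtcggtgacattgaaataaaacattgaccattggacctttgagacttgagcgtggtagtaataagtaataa
CYCB1-2: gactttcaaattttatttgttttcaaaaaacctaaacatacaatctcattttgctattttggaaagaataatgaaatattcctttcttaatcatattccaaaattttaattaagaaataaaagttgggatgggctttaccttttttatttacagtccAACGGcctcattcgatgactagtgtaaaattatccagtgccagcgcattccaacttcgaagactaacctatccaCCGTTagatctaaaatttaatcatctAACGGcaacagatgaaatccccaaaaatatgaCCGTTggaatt

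CYCB2-2, CYCB2-3 and CYCB2-1 each held 3 MSA cores in the same order and orientations, CYCB1-2 held 4 and CYCB2-4 held 1. The cores lay 167, 119 and 97 bases before the start in CYCB2-2, 109, 61 and 42 in CYCB2-3, and 132, 80 and 51 in CYCB2-1. Around the middle core these 3 genes shared the 11 letters TGATCCAACGG, and around the last core the 9 letters CTAGCCGTT. Searched on both strands, the longer string occurred upstream of 35 of 37998 genes (0.0921%) and the shorter of 52 (0.137%), among them CYCB1-3, which was not called. Both together occurred upstream of 3 genes (0.0079%), these same B2 cyclins, from whose sequences the strings were taken. CYCB2-1 carries the same pair as CYCB2-2 and CYCB2-3 and was not called.

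**Figure D2:**
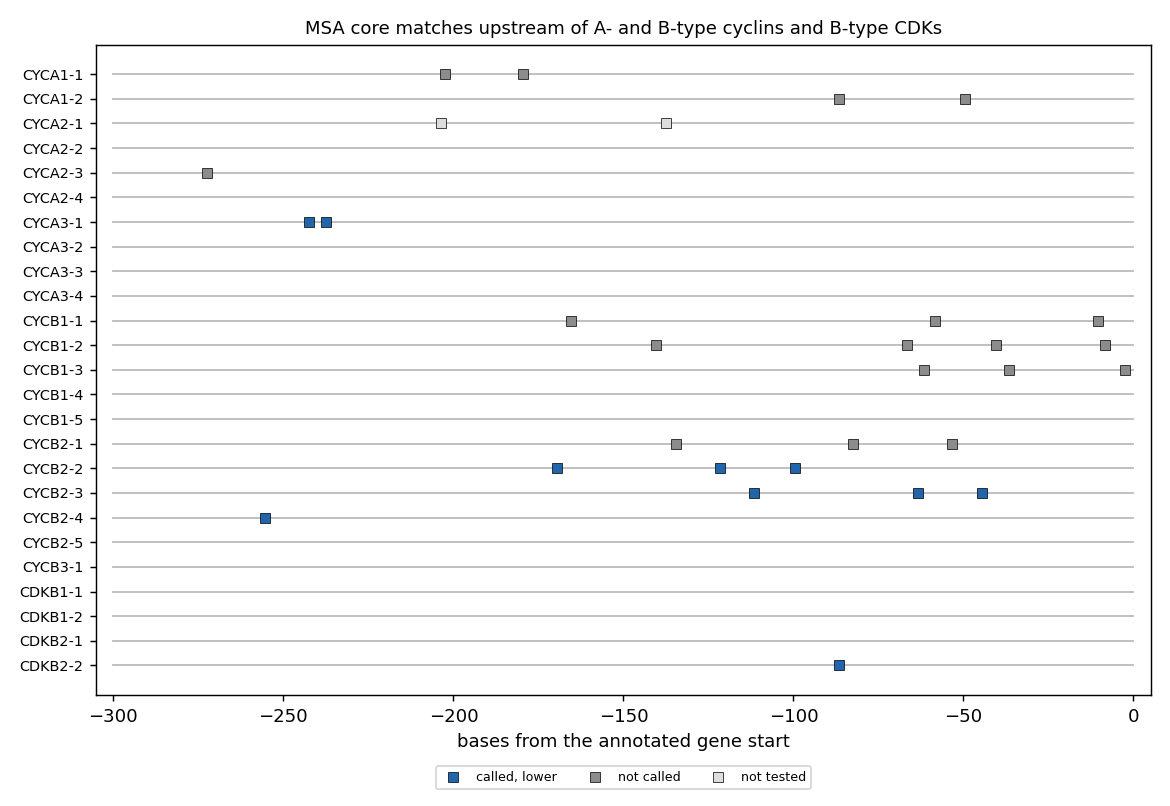
Positions of MSA core matches (AACGG, either strand) in the 300 bases upstream of each A- and B-type cyclin and B-type CDK, in bases from the annotated gene start. Squares are coloured by call in cpl2-2 against WT; 7 of 11 B-type cyclins, 5 of 10 A-type cyclins and 1 of 4 B-type CDKs have a match.

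An MSA core was present upstream of 4806 of the 19246 tested genes with such a window, and 2 or more upstream of 997 (5.18%). Among B-type cyclins 7 of 11 had a core and 6 had 2 or more, and among A-type cyclins 5 of 10 had a core and 4 had 2 or more. The share was 0 of 7 for U-type cyclins and 1 of 10 for D-type cyclins. KRP inhibitors had a core in 5 of 7, although none of them was called. Of the 10 genes called lower, 7 had a core, against 16 of the 56 tested and not called (28.6%). But 6 of the 10 are A- or B-type cyclins or B-type CDKs, and 12 of the 21 tested genes of these classes had a core. Class and call therefore cannot be told apart here. Of the 2 genes called higher, CDKG1 had 2 cores and CDKA-1 none. The windows of AT5G61660, CYCT1-4 and CDKG1 overlap a neighbouring gene. E2F sites, bound by the E2F factors of DNA replication genes and searched on both strands as TTTCCCGC, TTTCGCGC, TTTGCCGC and TTTGGCGC, were present upstream of 3 of 81 cyclin and CDK genes and of 2.08% of the 37998 genes searched. These matches describe the letters of the window and do not show binding.

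A-type cyclins had 8 of 10 genes tested: 2 fell, both of the A3 group, none rose, and 7 of the 8 lay below 0 (median log2 fold change -0.24), against 13.3% lower, 14.1% higher and 50.2% below 0 over all genes tested. Neither fall was called when library totals replaced the TMM factors (adjusted p = 0.104 for CYCA3-2 and 0.0772 for CYCA3-1). The summed level was 54.4 to 59.3 CPM in cpl2-2 and 66.7 to 69.8 CPM in WT, without overlap. CYCA3-2 (AT1G47210), the most abundant A-type cyclin per kilobase, had 20.5, 19.1 and 18.6 CPM in cpl2-2 and 23.2, 23.0 and 23.1 CPM in WT (log2 fold change -0.25, SE 0.08, adjusted p = 0.0217). The mutant libraries were all lower, and their mean was 84.0% of WT. CYCA3-1 (AT5G43080) had 2.83, 3.36 and 3.39 CPM in cpl2-2 and 3.90, 5.07 and 4.97 CPM in WT (log2 fold change -0.54, SE 0.20, adjusted p = 0.0426). The call of CYCA3-2 was lost in 5 of 12 alternatives (adjusted p-values of 0.0198 to 0.104 over the 12), among them leaving out cpl2-2 replicate 2 or 3 or WT replicate 1 or 3. That of CYCA3-1 was lost in 8 (0.0272 to 0.139), among them leaving out any 1 cpl2-2 library or WT replicate 2 or 3. The third tested A3 gene, CYCA3-4, had a log2 fold change of -0.17 (adjusted p = 0.428).

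The A1 and A2 cyclins act in G2, mitosis and meiosis, and none of the 5 tested was called by edgeR, DESeq2 or limma-voom on all 6 libraries; 1 had an unadjusted p under 0.05. CYCA2-3, which with CDKB1-1 restrains endoreduplication, had 10.7, 9.15 and 8.82 CPM in cpl2-2 and 11.3, 11.6 and 11.5 CPM in WT (log2 fold change -0.26, SE 0.12, adjusted p = 0.0979), and was called lower without cpl2-2 replicate 1 (adjusted p = 0.0486). CYCA1-1 had 11.0, 8.67 and 10.6 CPM in cpl2-2 and 12.1, 11.8 and 11.4 CPM in WT (log2 fold change -0.23, SE 0.12, adjusted p = 0.165). In both genes the genotypes did not overlap. CYCA2-2 was the A-type cyclin with a fold change above 0 (log2 fold change 0.43, SE 0.34), with mutant libraries of 2.35, 0.948 and 1.94 CPM that spanned the WT range of 1.12 to 1.38 CPM.

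B-type CDKs, plant-specific kinases made mainly in G2 and mitosis, had 4 genes, all tested, of which 1 fell and 3 lay below 0. Over all genes tested 13.3% fell and 50.2% lay below 0. CDKB2-2 (AT1G20930) had 9.22, 9.19 and 7.95 CPM in cpl2-2 and 10.6, 10.5 and 14.7 CPM in WT (log2 fold change -0.44, SE 0.13, adjusted p = 0.00831). WT replicate 3 stood above the other WT libraries, and without it the log2 fold change was -0.26 (adjusted p = 0.184). CDKB2-1, whose transcript is 86.0% identical to that of CDKB2-2 over 957 bases, had 14.2, 13.6 and 14.1 CPM in cpl2-2 and 15.0, 14.2 and 18.1 CPM in WT. It too was highest in WT replicate 3 and was not called (log2 fold change -0.18, SE 0.10, adjusted p = 0.220). CDKB1-1 and CDKB1-2 had log2 fold changes of -0.18 (adjusted p = 0.404) and 0.13 (adjusted p = 0.667). CDKB2-2 overlaps a gene on the opposite strand, as do others among the 81 genes, 24 in all. The labels name a directional library kit, but the sources used here do not state whether reads were counted by strand. Whether reads of such pairs were separated is therefore uncertain.

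**Figure D3:**
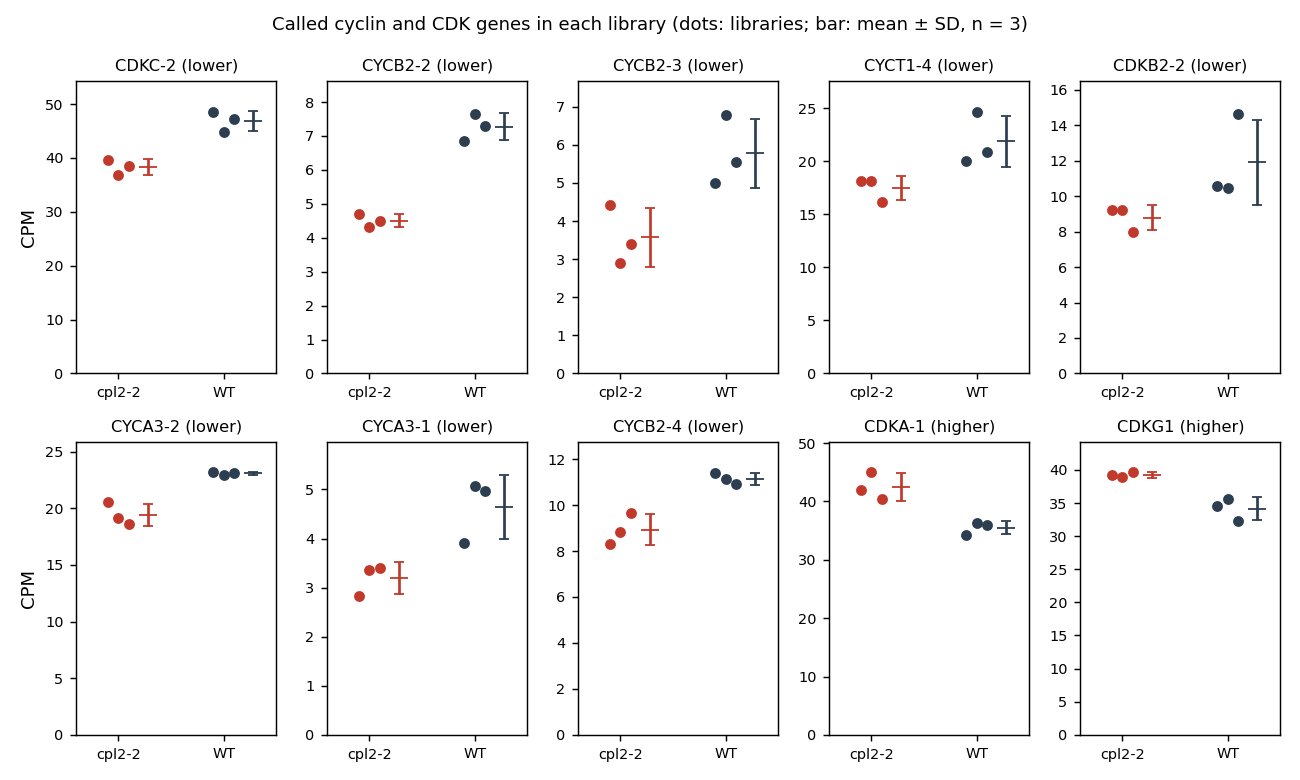
CPM in each library for the 10 called genes annotated as cyclins or CDKs, with cpl2-2 left of WT, dots for libraries and bars for mean ± SD (n = 3). In all 10 the genotypes do not overlap, but the genes were picked because they were called in these same libraries, so this adds no support. Over all genes tested 39.0% did not overlap. Of the 10, 8 are lower and 2, CDKA-1 and CDKG1, are higher in cpl2-2.

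CDKA-1 (AT3G48750, chromosome 3, 18071454 to 18074641, plus strand), the main cell-cycle kinase of Arabidopsis, moved the other way. It had 41.9, 45.0 and 40.3 CPM in cpl2-2 and 34.2, 36.3 and 36.0 CPM in WT, with every mutant library above every WT library. The mean was 42.4 ± 2.4 CPM in cpl2-2 and 35.5 ± 1.1 CPM in WT (mean ± SD of 3 libraries), 1.20-fold higher (log2 fold change 0.26, SE 0.07, adjusted p = 0.00221). The call held in all 12 alternatives, with adjusted p-values of 0.000112 to 0.0261.

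D-type cyclins, which link growth signals to entry into the cycle, had 9 of 10 genes tested and no call with TMM factors by edgeR, DESeq2 or limma-voom. Of the 9, 6 lay below 0 (median log2 fold change -0.16), against 50.2% of all genes tested. An unadjusted p under 0.05 was found for 3 of the 9, against 7108 of the 19302 genes tested. These 3, CYCD6-1, CYCD3-1 and CYCD4-1, all lay below 0. The summed level of the D-type genes was 173.6 to 186.7 CPM in cpl2-2 and 174.8 to 185.4 CPM in WT, and the ranges overlapped. Of this sum CYCD3-2 alone averaged 69.1 CPM in cpl2-2 and 64.1 CPM in WT. CYCD3-2, the most abundant cyclin per kilobase, had 68.4, 75.4 and 63.6 CPM in cpl2-2 and 66.1, 60.2 and 66.0 CPM in WT (log2 fold change 0.11, SE 0.06, adjusted p = 0.165). With library totals it was called higher (adjusted p = 0.0153), and so it was without cpl2-2 replicate 3 (adjusted p = 0.0394). Leaving out 1 library also gave 3 lower calls, of CYCD6-1 without cpl2-2 replicate 1 (adjusted p = 0.0287), CYCD4-1 without cpl2-2 replicate 3 (0.0489) and CYCD3-1 without WT replicate 1 (0.0365). CYCD3-1 and CYCD3-3, the other members of the D3 group, lay on the opposite side of 0 (log2 fold changes -0.18 and -0.16, adjusted p = 0.105 and 0.226). CYCD6-1, known from formative divisions of the root ground tissue, had the lowest fold change of the D-type genes, with 4.21, 3.03 and 3.05 CPM in cpl2-2 and 4.50, 5.31 and 4.53 CPM in WT (log2 fold change -0.48, SE 0.20, adjusted p = 0.0692).

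Among the inhibitors and docking subunits there was no call by edgeR, DESeq2 or limma-voom, and none of the 9 genes had an unadjusted p under 0.05. All 7 KRP genes were tested, and their summed level was 68.0 to 71.1 CPM in cpl2-2 and 67.7 to 74.8 CPM in WT. KRP1 had 25.6, 26.2 and 26.7 CPM in cpl2-2 and 23.9, 25.5 and 28.2 CPM in WT (log2 fold change 0.02, SE 0.08), so the mutant values lay inside the WT range. KRP6 had the highest fold change of the group (log2 fold change 0.36, SE 0.20, adjusted p = 0.192). CKS1 had 27.7, 30.4 and 29.8 CPM in cpl2-2 and 31.9, 29.5 and 34.1 CPM in WT, with overlap (log2 fold change -0.12, SE 0.07, adjusted p = 0.241), and CKS2 had a log2 fold change of -0.09 (adjusted p = 0.462). A gene that misses the threshold is not shown to be equal in the genotypes: the median SE of the 68 genes was 0.13 on the log2 scale.

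The kinases and cyclins that act on the RNA polymerase II CTD included 2 falls, in 1 of 2 CDKC genes and 1 of 4 T-type cyclins tested. None of the 3 CDKD genes fell, nor did CYCH1-1, and 13.3% of all genes tested fell. CDKC-2 (AT5G64960, chromosome 5, 25955374 to 25958995, plus strand), the more abundant CDKC, had 39.7, 36.8 and 38.5 CPM in cpl2-2 and 48.6, 44.9 and 47.2 CPM in WT, without overlap. It averaged 38.3 ± 1.5 CPM in cpl2-2 and 46.9 ± 1.9 CPM in WT (mean ± SD of 3 libraries), a fall to 81.7% of WT (log2 fold change -0.29, SE 0.06, adjusted p = 0.000354). CYCT1-4 (AT4G19600), a T-type cyclin that partners CDKC, had 18.1, 18.1 and 16.2 CPM in cpl2-2 and 20.06, 24.6 and 20.9 CPM in WT (log2 fold change -0.32, SE 0.09, adjusted p = 0.0063). Without WT replicate 2, its highest library, the adjusted p of CYCT1-4 was 0.0947, whereas CDKC-2 was called in all 12 alternatives.

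CDKC-1, the paralogue of CDKC-2, had 10.9, 10.4 and 13.1 CPM in cpl2-2 and 8.64, 9.65 and 10.7 CPM in WT, with overlapping genotypes and no call (log2 fold change 0.25, SE 0.12, adjusted p = 0.137), but it was called higher with library totals (adjusted p = 0.0477). As a share of the counts of both CDKC genes, CDKC-1 made up 21.6%, 22.1% and 25.4% in cpl2-2 and 15.1%, 17.7% and 18.5% in WT. The shares did not overlap between genotypes; this quantity was chosen after the values were seen and was not tested. Both CDKC genes overlap a gene on the opposite strand. The other T-type cyclins, CYCT1-3, CYCT1-5 and CYCT1-2, were not called (log2 fold changes -0.23, -0.08 and 0.05, adjusted p = 0.0958, 0.489 and 0.936), although CYCT1-3 and CYCT1-5 were lower in every mutant library.

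The CDK-activating kinases CDKD-1, CDKD-2 and CDKD-3 and their partner CYCH1-1, counterparts of the TFIIH kinase module, were not called by edgeR, DESeq2 or limma-voom, and CYCH1-1 alone had an unadjusted p under 0.05. CYCH1-1 had 6.13, 7.34 and 8.24 CPM in cpl2-2 and 8.55, 9.16 and 8.86 CPM in WT, without overlap (log2 fold change -0.29, SE 0.14, adjusted p = 0.126). CDKD-3 had 6.34, 6.82 and 6.59 CPM in cpl2-2 and 8.40, 7.85 and 7.40 CPM in WT, again without overlap (log2 fold change -0.26, SE 0.14, adjusted p = 0.193). CDKD-1 and CDKD-2 overlapped between genotypes. CDKF-1, which activates CDKD kinases, averaged 20.4 CPM in cpl2-2 and 20.7 CPM in WT (log2 fold change -0.02, SE 0.09). CDKE-1, the kinase of the Mediator module, had 13.3, 15.4 and 15.1 CPM in cpl2-2 and 11.3, 15.4 and 12.2 CPM in WT (log2 fold change 0.17, SE 0.11, adjusted p = 0.267).

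CDKG1 (AT5G63370), a kinase known from meiotic pairing and splicing, was the second gene that rose, with 39.3, 38.9 and 39.8 CPM in cpl2-2 and 34.6, 35.6 and 32.2 CPM in WT, without overlap (log2 fold change 0.20, SE 0.07, adjusted p = 0.0178). Its call was lost without cpl2-2 replicate 3 (adjusted p = 0.0542) and without WT replicate 3 (adjusted p = 0.124), and it overlaps a gene on the opposite strand. AT1G67580, matched to a rice CDKG, was not called (log2 fold change -0.09). AT4G19110 and AT5G45430, both matched to rice CDKF-4, had the highest CPM of the kinases in the set. AT4G19110 had 128, 124 and 122 CPM in cpl2-2 and 138, 130 and 132 CPM in WT (log2 fold change -0.10, SE 0.04, adjusted p = 0.0762). AT5G45430 had a log2 fold change of 0.04 (SE 0.05).

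U-type cyclins, relatives of the yeast PHO80 cyclin, had 6 of 7 genes tested, no call by edgeR, DESeq2 or limma-voom and no unadjusted p under 0.05. Their summed level was 40.3 to 41.0 CPM in cpl2-2 and 38.2 to 42.0 CPM in WT. CYCU1-1, the most abundant per kilobase, had 13.8, 14.2 and 14.5 CPM in cpl2-2 and 13.3, 15.7 and 16.0 CPM in WT, so the mutant values lay inside the WT range (log2 fold change -0.08, SE 0.10).

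Transcript levels per kilobase of gene length covered a wide range within the set. Among the 69 genes classed as cyclins, CDKs or their regulators, AT4G19110, a CDK only by similarity to rice, stood at 47.8 CPM per kb in cpl2-2 and 51.2 in WT. It was followed by CYCD3-2 at 41.1 and 38.1, CKS1 at 34.2 and 37.2, CKS2 at 28.6 and 30.5, AT5G45430, likewise matched to rice, at 28.2 and 27.3, and CDKA-1 at 28.3 and 23.7. CYCA3-2, at 10.8 CPM per kb in cpl2-2 and 12.8 in WT, and CYCB1-2, at 7.86 and 8.95, led their classes. The called B2 cyclins were low, with CYCB2-4 at 3.84 CPM per kb in cpl2-2 and 4.79 in WT, CYCB2-2 at 2.59 and 4.18, and CYCB2-3 at 1.77 and 2.87. CDKA-1 lay between CKS2 and AT5G45430 in cpl2-2 and below both in WT.

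**Figure D4:**
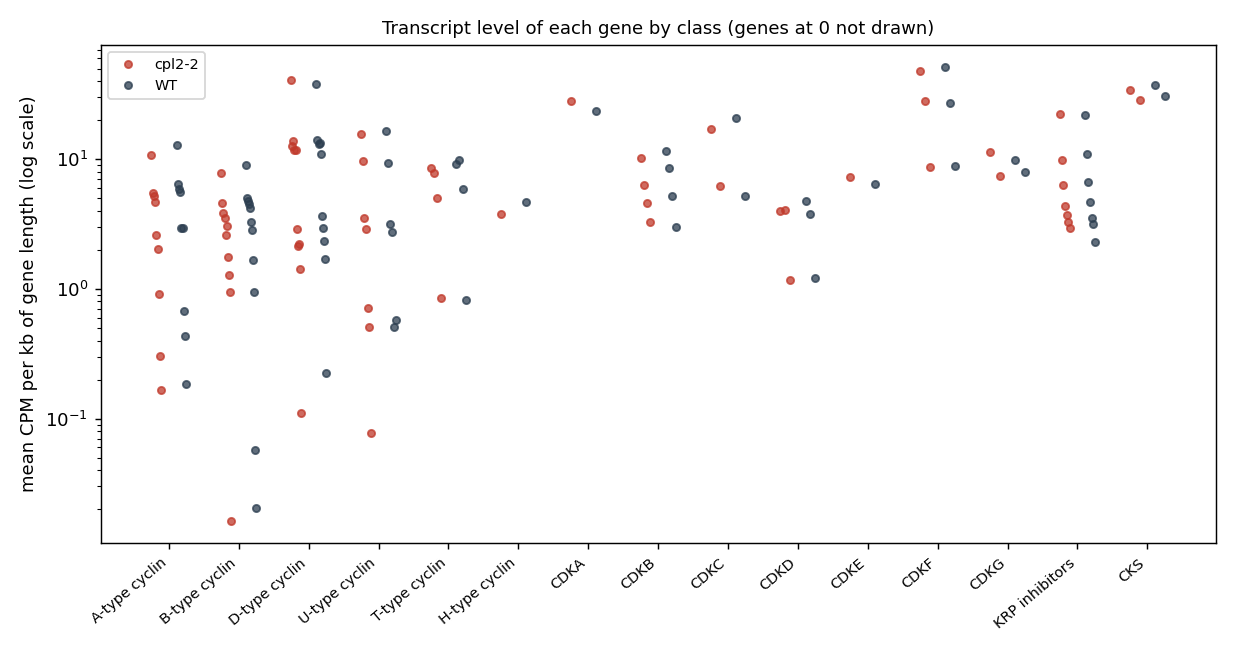
Mean level of each gene classed as a cyclin, CDK, inhibitor or regulatory subunit, in CPM per kilobase of gene length on a log axis, by class, with cpl2-2 left of WT in each class. Genes at 0 in a genotype are not drawn for it. Levels differ widely within the A-, B- and D-type cyclins, while each class covers a similar range in both genotypes, except the U-type cyclins. There CYCU4-2 is drawn in cpl2-2 only, at 0.0779 CPM per kb from 4 counts.

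Of the 12 genes matched only through a similarity or domain entry, 6 were tested and 2 fell, against 13.3% of all genes tested. AT5G61660, annotated as a glycine-rich protein, had the smallest p of the whole set. Its counts were 242, 257 and 229 in cpl2-2 and 432, 344 and 408 in WT, or 12.9, 12.2 and 11.1 CPM in cpl2-2 and 21.3, 16.8 and 19.9 CPM in WT, without overlap (log2 fold change -0.68, SE 0.10, adjusted p = 8.85e-07). Its span on chromosome 5 (24778653 to 24779945, minus strand) lies wholly inside that of the cyclin CYCU4-3 on the plus strand (24778191 to 24779989). CYCU4-3 had 17, 19 and 16 counts in cpl2-2 and 17, 22 and 21 in WT and was not called (log2 fold change -0.18, SE 0.40). AT1G22970, with a Grap2 and cyclin-D-interacting domain, had 13.5, 16.4 and 14.0 CPM in cpl2-2 and 18.2, 17.6 and 18.5 CPM in WT (log2 fold change -0.31, SE 0.10, adjusted p = 0.0163). It overlaps AT1G22980 on the same strand, and its call was lost without cpl2-2 replicate 1, cpl2-2 replicate 3 or WT replicate 3 (adjusted p = 0.0877, 0.0606 and 0.0505) and with library totals (0.0655). AT1G67250, a proteasome maturation factor, was the most abundant of the 81 genes per kilobase and was not called (log2 fold change -0.09, SE 0.06).

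The other 13 genes did not pass the filter. Of these, 5 had no count in any library (CYCT1-1, CYCA3-3, AT3G05185, AT3G27185 and AT5G38650). CYCB1-5 had 4 counts in the 3 cpl2-2 libraries together and 14 in WT, a ratio of 0.290 (exact binomial 95% interval 0.0694 to 0.922, counting error only), and its transcript is 97.9% identical to that of CYCB1-2 over 386 bases, so its reads are uncertain. CYCD7-1, a cyclin of the guard cell lineage, had 9 counts in cpl2-2 and 18 in WT (ratio 0.507, interval 0.201 to 1.19). CYCA2-1 had 20 counts in cpl2-2 and 22 in WT. CYCB2-5, 95.1% identical to CYCB2-3 over 618 bases, had no count in cpl2-2 and 1 in WT, and CYCU4-2 had 4 in cpl2-2 and none in WT. The remaining 3 genes had at most 5 counts in all.

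Other cell-cycle genes, from 7 lists of 58 genes, showed a similar direction. Of the 56 tested, 12 fell and 1 rose (21.4% and 1.79%, against backgrounds of 13.3% and 14.1%), 43 lay below 0 and the median log2 fold change was -0.19. With library totals 8 fell and 3 rose. Among 14 DNA replication genes 5 fell and 13 lay below 0, against 13.3% and 50.2% of all genes tested, with a summed level of 216.1 to 228.3 CPM in cpl2-2 and 257.0 to 269.0 CPM in WT. TSO2, a small subunit of ribonucleotide reductase, had 70.7, 66.2 and 67.1 CPM in cpl2-2 and 79.1, 85.7 and 83.8 CPM in WT (log2 fold change -0.28, SE 0.05, adjusted p = 1.9e-05). MCM7 and MCM6, subunits of the replicative helicase, fell as well (log2 fold changes -0.32 and -0.40, adjusted p = 0.00381 and 0.00966), MCM6 with an adjusted p of 0.0519 without WT replicate 3.

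Among 13 mitosis and cytokinesis genes 4 fell and 12 lay below 0, against 13.3% and 50.2% of all genes tested. MAD2, of the spindle checkpoint, had 11.9, 12.5 and 10.9 CPM in cpl2-2 and 16.9, 16.5 and 16.7 CPM in WT (log2 fold change -0.50, SE 0.10, adjusted p = 0.000138). CDC20.1, an activator of the anaphase-promoting complex, and HIK, a kinesin of cytokinesis, fell too (log2 fold changes -0.44 and -0.43, adjusted p = 0.000513 and 0.00249). APC10, a subunit of that complex, was the 1 of 9 genes of its list that fell, against 13.3% of all genes tested (log2 fold change -0.45, SE 0.09, adjusted p = 0.000184). MYB3R4, an activator of MSA-bearing genes, fell (log2 fold change -0.35, SE 0.13, adjusted p = 0.0355), but the call was lost in 6 of 12 alternatives (adjusted p-values of 0.0120 to 0.186), including without cpl2-2 replicates 1 or 2 and WT replicates 2 or 3. MYB3R1 of the same family lay on the other side of 0, with 13.2, 12.1 and 14.6 CPM in cpl2-2 and 10.2, 11.6 and 11.3 CPM in WT, without overlap (log2 fold change 0.27, SE 0.11, adjusted p = 0.0729), and was called higher with library totals (0.0204) and without cpl2-2 replicate 2 (0.0420). Among the 9 E2F, DP and RBR genes E2FA, an activating E2F, was higher with 5.60, 5.64 and 7.13 CPM in cpl2-2 and 4.15, 4.44 and 4.67 CPM in WT (log2 fold change 0.47, SE 0.17, adjusted p = 0.038), and DEL3, an atypical E2F, was lower (log2 fold change -0.66, SE 0.20, adjusted p = 0.00989). The call of E2FA was lost with DESeq2 (adjusted p = 0.0646) and without cpl2-2 replicate 3 or any 1 WT library (0.0533 to 0.223), and that of DEL3 without cpl2-2 replicate 1 (0.101) or WT replicate 1 (0.0586). WEE1, CDC25 and the 5 SIAMESE-related inhibitors tested had no call with TMM factors by edgeR or limma-voom, or by DESeq2, and no unadjusted p under 0.05; with library totals SMR1 was called higher (log2 fold change 0.13, adjusted p = 0.0489). MAD2, APC10, MCM7, E2FA, MYB3R1 and SMR1 overlap a gene on the opposite strand, and TSO2 and MCM7 one on the same strand.

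**Figure D5:**
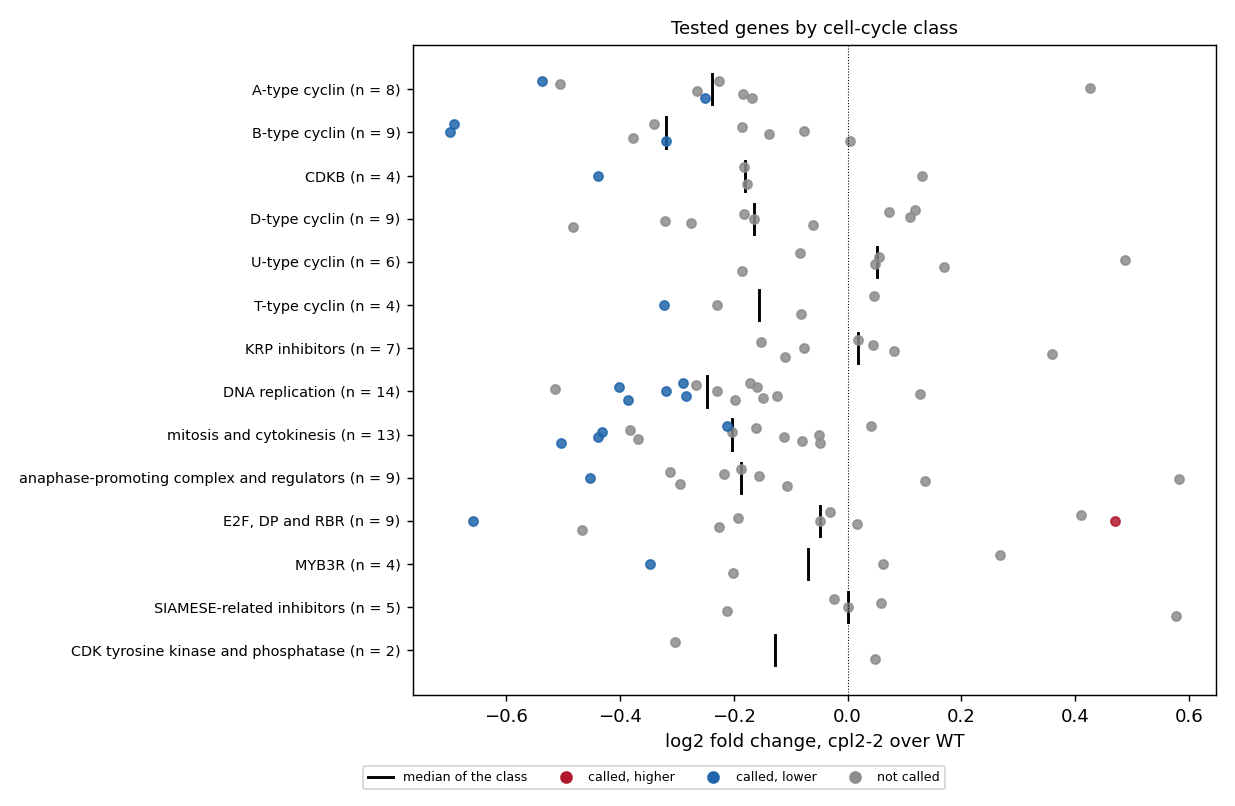
Log2 fold change (cpl2-2 over WT) of each tested gene in 7 cyclin and CDK classes and 7 other cell-cycle lists, with the class median as a bar. B-type cyclins have the lowest of these medians (-0.32), and the median over all genes tested was -0.0017. The ranking changed without WT replicate 3 (B-type -0.16, A-type -0.26, mitosis and cytokinesis -0.26). It also changed without cpl2-2 replicate 1 (B-type -0.272, A-type -0.279).

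Some markers of cell types differed between genotypes beside these genes. Of 6 stomatal lineage markers all were tested and lay below 0, against 50.2% of all genes tested. Their summed level was 45.9 to 48.5 CPM in cpl2-2 and 57.4 to 60.2 CPM in WT, of which FAMA alone averaged 23.7 and 30.9 CPM. FAMA was the 1 called (16.7%, against a background of 13.3%; log2 fold change -0.38, SE 0.08, adjusted p = 9.03e-05). The other 5 were not called, with adjusted p-values from 0.0528 (EPF2) to 0.863 (EPF1). EPF2 was called lower without WT replicate 3 (adjusted p = 0.0460). Of 5 shoot meristem markers the sum was 29.6 to 34.3 CPM in cpl2-2 and 31.0 to 32.7 CPM in WT, CLV3 was at 0 in 1 mutant and 2 WT libraries and below 0.1 CPM in the rest, and STM, which keeps meristem cells undifferentiated, was higher (7.37 ± 0.82 CPM in cpl2-2 and 3.92 ± 0.56 CPM in WT, SD, n = 3; log2 fold change 0.91, adjusted p = 4.07e-05). The other 3 meristem markers tested were not called: ANT had 17.5, 20.8 and 23.1 CPM in cpl2-2 and 23.2, 23.7 and 23.4 CPM in WT (log2 fold change -0.19, adjusted p = 0.106; 0.0218 without cpl2-2 replicate 3), and KNAT1 and CUC2 had log2 fold changes of 0.04 and 0.10. The 3 trichome markers summed to 11.6 to 12.0 CPM in cpl2-2 and 14.8 to 20.3 CPM in WT. Of the 3, GL1 and GL2 were called lower, against a background of 13.3% (log2 fold changes -1.11 and -0.45, adjusted p = 0.00201 and 0.00482). GL3 was not called (log2 fold change -0.56, adjusted p = 0.176). All 4 green leaf markers were called lower, against a background of 13.3%, with sums of 31446 to 32834 CPM in cpl2-2 and 40944 to 42217 CPM in WT. Their log2 fold changes ran from -0.59 to -0.35, and the largest adjusted p was 2.7e-20 (LHCB3). Root markers were at or near 0: EXPA7, IRT1 and PLT1 were at 0 in every library, and the 5 together reached 0.616 to 0.959 CPM in cpl2-2 and 0.390 to 1.28 CPM in WT. The part of these differences in the falls of the A- and B-type cyclins was not tested.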

How the data were processed

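The data are a single table of unnormalized whole-number counts for each gene, as the authors deposited it, and the unit was taken from its values. Levels per kilobase use the authors' own gene length column. Per the submitters' processing notes, HISAT2 2.0.5 and TAIR10 were used; the counting program, its strand setting and the annotation release were not stated in those notes. Group and replicate number come from the labels.

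Genes that passed filterByExpr (19302 of 38192) were tested with edgeR 4.0.16 in R 4.3.3 (TMM factors, quasi-likelihood fit, genotype the only term, Benjamini-Hochberg adjustment over all genes tested). The fitting code was tested on simulated data. Alternatives were library totals, DESeq2 1.42.0, limma-voom (limma 3.58.1), other filters, a replicate block and leaving out each library.

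The genes, lists and rules were chosen with earlier results of these data known. Named are every called gene, the most abundant gene per kilobase of each class, CPL2 and up to 3 called genes of each other list; further genes were named after their values were seen. Names are those of the UniProt entries in the deposited descriptions, and a gene without one goes by its locus. Symbols of genes outside the set came from the RefSeq table of TAIR10.1, to which 37570 identifiers (98.4%) matched, 37568 of them with the same start.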

Additional observations from a re-analysis of the deposited data

How the results depend on the processing

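When library totals replaced the TMM factors, 4 cyclin and CDK genes were higher and 6 lower, against 2 and 10 in the reported fit, and the median log2 fold change of all genes tested moved to 0.066. Leaving out 1 library at a time gave 1 to 2 genes higher and 5 to 9 lower, with 6 lower without WT replicate 2, and 1 higher and 5 lower without WT replicate 3. These fits have fewer samples. DESeq2 gave 2 higher and 8 lower, and limma-voom 2 and 9. CPL2, CDKC-2, CYCB2-2, AT5G61660 and CDKA-1 kept their direction and call in all 12 alternatives. KRP1, not called, had a log2 fold change of -0.0394 without WT replicate 1 (adjusted p = 0.802) and up to 0.0838 without another library, against 0.02 with all; the cause was not tested. With the replicate block the counts were 2 higher and 10 lower, and the same 12 genes were called. The deviations of same-numbered libraries correlated at -0.012, 0.010 and 0.013 across genes, so no shared replicate effect was seen. This check cannot show whether same-numbered samples were grown or prepared together. CYCB2-1, CYCB2-2 and CYCB2-3 had 38 to 157 counts in a library, which limits their precision.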
